A study of Mus musculus with 21 samples.

Results

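The arrays described here are the 6 arrays of monotransgenic dentate gyrus in experiment 2 and set 3, out of 21 arrays in the series. They were chosen by group, and then split on the measured level of Ogn, the gene for osteoglycin (also called mimecan), a small leucine-rich proteoglycan of the extracellular matrix. Arrays with an Ogn level under 8.3, as log2 of the deposited intensity plus 16, were called low (3 arrays), and arrays at 8.3 or more were called high (3 arrays). Because Ogn chose the arrays, the difference between low and high arrays is described without a test, and the tests below come from set 1, whose 9 arrays the rule did not use.

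The dentate gyrus is the input region of the hippocampus, made up mostly of granule cells. The series asked what overexpression of the Nogo receptor NgR, encoded by Rtn4r, does to the forebrain. In a tetracycline-off system the transactivator tTA switches on a transgene behind the pTRE promoter, and doxycycline blocks it, so a bitransgenic animal that carries both parts expresses the transgene when doxycycline is absent. An animal with only the tTA part or only the responder part should not express it from the transgene. NgR binds myelin proteins that limit axon growth. Penk encodes the precursor of the enkephalin opioid peptides, and Igfbp5 a secreted protein that binds insulin-like growth factors.

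Each of the 7 groups had 3 arrays of total RNA. Set 1 held bitransgenic samples from which doxycycline had been removed, bitransgenic samples kept on a doxycycline diet, and monotransgenic samples, titled NgR, which lack tTA and were off doxycycline. Experiment 2 held monotransgenic samples given water (samples 1, 2 and 8) and bitransgenic samples given water and never exposed to doxycycline (samples 7, 4 and 5). Set 3 held monotransgenic and bitransgenic samples with no treatment given. For experiment 2 and set 3 the labels do not say which of the transgenes the monotransgenic samples carry, and no genotype was assigned to any array here. The labels give no strain, age or promoter for tTA, and separate animals are implied only by sample numbers, so the spread behind each p-value is that of these samples and may be technical. The titles of experiment 2 samples 1 and 2 and of its bitransgenic samples 7, 4 and 5 end in a suffix, and what it marks is not given. Sample 8, the only high array of that experiment, is thus also its only array without the suffix. In experiment 2 the suffix cannot be told apart from whatever else sets sample 8 apart from the low and bitransgenic arrays. All titles of set 3, monotransgenic and bitransgenic, carry it.

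Across the 21 arrays the median log2 value ran from 5.19 to 5.49. The log2 ratio of the 3' to the 5' probe set of beta-actin, a measure of RNA integrity, was 5.84 in the low array of sample 1, 4.84 in the low array of sample 2 and 4.79 in the high array of sample 8. In set 3 it was 4.56 and 4.39 in the high arrays and 4.39 in the low array. Among these monotransgenic arrays the ratio was therefore highest in 1 low array, while bitransgenic sample 4 of experiment 2 was higher, at 6.24. In experiment 2 both low arrays were above the high one, sample 2 by little, and in set 3 the low array was not apart from the high ones. The same ratio for Gapdh did not separate low from high arrays in either set. In experiment 2 it was 4.33 and 4.65 in the low arrays and 4.51 in the high one. In set 3 it was 4.48 in the low array and 4.66 and 4.43 in the high ones. The sex-linked markers separated experiment 2 from set 3, not low from high arrays, with low minus high differences from -0.13 to 0.08 over 4 genes. Granule cell markers, which define most cells of the region, had a summed intensity of 33900 and 25900 in the low arrays of experiment 2. It was 36700 in the high array of that experiment. In set 3 the sum was 25400 in the low array and 34100 and 32500 in the high arrays. Within each set the low arrays were thus below the high ones, while the ranges overlapped across sets.

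Rtn4r, the gene the study overexpressed, did not separate the low from the high arrays. Its intensity was 113 and 185 in the low and 123 in the high array of experiment 2, and 112 in the low and 133 and 85.9 in the high arrays of set 3. The bitransgenic arrays stood far above all of these, at 605, 365 and 753 in experiment 2 and 672, 755 and 562 in set 3. The low and high arrays thus shared a low Rtn4r level, and the genes below differed at that level.

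Ogn intensity in experiment 2 was 153 in sample 1, 79.6 in sample 2 and 525 in sample 8. In set 3 it was 824 in replicate 1, 41.2 in replicate 2 and 652 in replicate 3. The low arrays are thus samples 1 and 2 of experiment 2 and replicate 2 of set 3. On the log2 scale the highest low array was at 7.40 and the lowest high array at 9.08, on either side of the limit of 8.3. The other Ogn probe set, not used by the rule, was dimmer and ran the same way, with a low minus high difference of -0.98.

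Penk followed the same division. Its intensity was 89.6, 108 and 123 in the low arrays (samples 1 and 2, then set 3 replicate 2) and 548, 614 and 484 in the high arrays (sample 8, then set 3 replicates 1 and 3). The groups did not overlap, and Penk was 4.6-fold lower in the low arrays on the scale of log2 (value + 16), with differences of -2.35 in experiment 2 and -2.05 in set 3. Igfbp5 was at 195, 253 and 536 in the low arrays and 838, 1020 and 1090 in the high arrays, also without overlap. The Igfbp5 difference was -1.84 in experiment 2 and -0.98 in set 3, and its dimmer probe set showed a difference of 0.04, so the direction rests on 1 of 2 probe sets. Penk and Igfbp5 were picked with these arrays in view, so their differences, like that of Ogn, are a description.

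**Figure D1:**
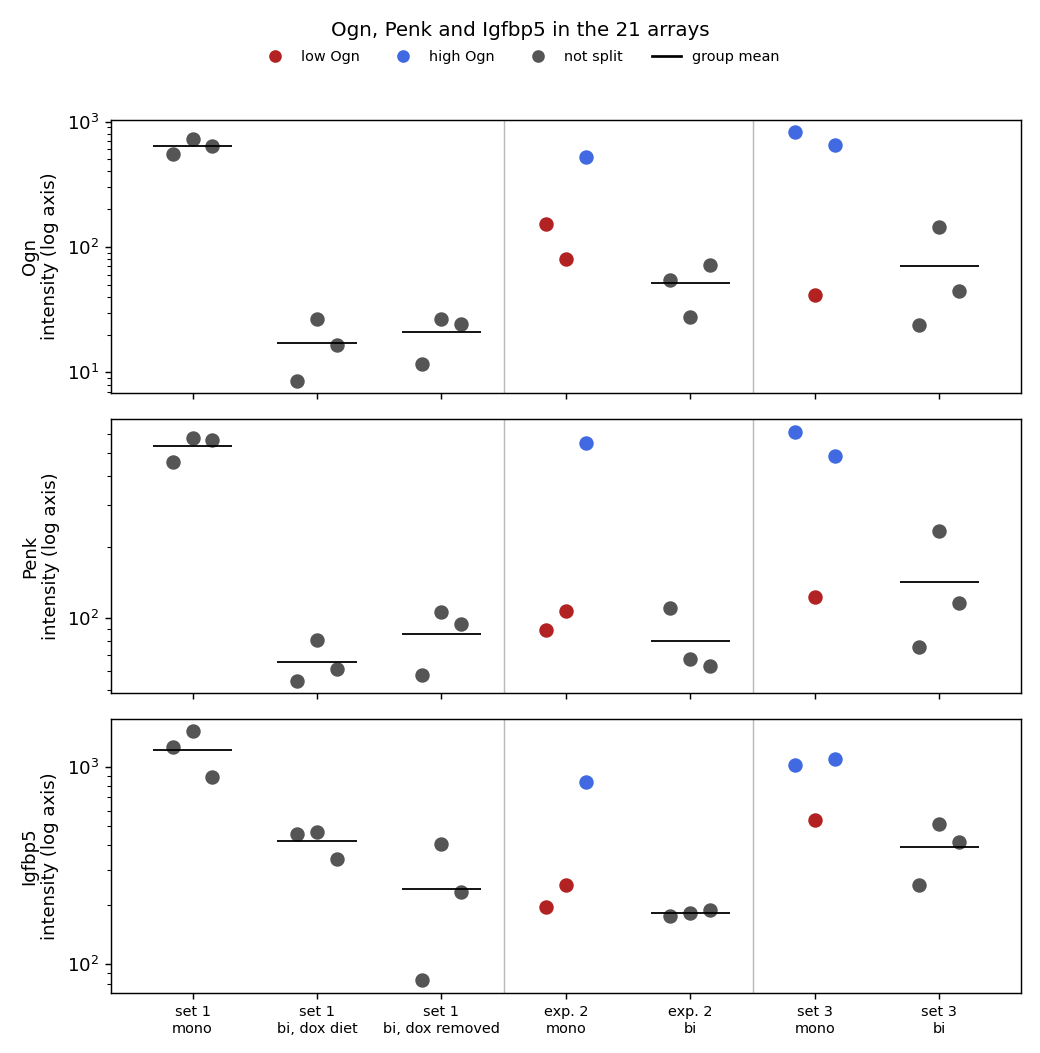
Intensity of Ogn, Penk and Igfbp5 (log axes) in each of the 21 arrays, by group; red points are the 3 low Ogn arrays, blue points the 3 high ones, grey points all others, and black lines the means of the groups that were not split. In Penk the low arrays sit between 89.6 and 123 and the high arrays between 484 and 614, and the set 1 monotransgenic arrays sit with the high ones.

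The 3 genes were tested in set 1. Ogn intensity was 556, 728 and 636 in the monotransgenic arrays, against 8.54, 26.8 and 16.5 on the doxycycline diet and 11.7, 26.8 and 24.2 after removal. Penk was at 459, 577 and 566 in the monotransgenic arrays, against 54.6, 80.8 and 61.0 on the diet and 57.5, 106 and 94.5 after removal. Igfbp5 was at 1260, 1510 and 887, against 457, 467 and 343 on the diet and 83.1, 407 and 232 after removal. In all 3 genes every bitransgenic array was below every monotransgenic array.

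The 6 bitransgenic arrays of set 1 were lower than the 3 monotransgenic ones by a log2 difference of -4.27 for Ogn, -2.58 for Penk and -1.96 for Igfbp5, each with a two-sided exact permutation p of 0.0238, the smallest that 84 labelings allow, and 0.0238 after adjustment over the 3 genes. In limma's fit over all 21 arrays Ogn fell by 4.27 ± 0.64 (SE; adjusted p = 0.0101) and Penk changed by -2.58 ± 0.46 (adjusted p = 0.0453), while Igfbp5, at -1.96 ± 0.40, did not pass for both bitransgenic groups together (adjusted p = 0.0828). In the same fit Igfbp5 fell after removal alone, by 2.43 ± 0.46 (adjusted p = 0.0468), and on the diet was at -1.48 ± 0.46 (adjusted p = 0.829). Without 1 monotransgenic array of set 1 the exact p is 0.0714, the smallest that 6 against 2 allow.

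Only 5 of 12499 genes passed in the set 1 comparison of both bitransgenic groups with the monotransgenic group (0.0400% of the genes tested), all lower. Beside Ogn and Penk they were Tox3, a transcription factor of granule cells, at -1.73 ± 0.23 (adjusted p = 0.00373), Glis3, a zinc finger transcription factor, at -1.21 ± 0.21 (adjusted p = 0.0453), and Lum, the matrix proteoglycan lumican, at -1.36 ± 0.24 (adjusted p = 0.0453). Each of these was also lower in the low than in the high Ogn arrays without overlap, by smaller amounts: -0.71 for Tox3, -0.55 for Glis3 and -0.73 for Lum. For Lum the difference was -0.20 in experiment 2 and -1.26 in set 3. Its dim experiment 2 intensities were 30.2 and 26.4 in the low arrays and 32.7 in the high array. Tox3 intensity was 95.9, 62.4 and 92.6 in the low arrays and 119, 171 and 208 in the high ones. The calls of Penk and Glis3 were lost without any 1 of the 9 arrays of set 1 (0 of 9 fits passed), Lum passed in 1 of 9, and Ogn and Tox3 passed in 7 of 9, failing without monotransgenic replicate 1 or 2. The adjusted p of Penk reached 0.475 over all alternatives. Against the monotransgenic group alone, 3 genes passed on the diet (0.0240%) and 9 after removal (0.0720%), Igfbp5 among them; with unadjusted p under 0.05 there were 481 and 982.

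The fit takes its spread from all groups, and the monotransgenic groups of experiment 2 and set 3 mix low and high arrays. Whether this limited the counts was not tested. The median residual SD of the genes that separate the low from the high arrays was 0.51 over the 21 arrays and 0.29 within set 1. For all genes it was 0.25 and 0.18. The separating genes were chosen for differing within these monotransgenic groups, so their larger SD over the 21 arrays was partly set by that choice. Fitted to the 9 arrays of set 1 alone, limma called 142 genes for both bitransgenic groups, 32 on the diet and 330 after removal; Igfbp5 then passed (adjusted p = 0.0152).

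Beyond Ogn, 170 of 12498 genes differed by 1 log2 unit or more between low and high arrays with no overlap of the normalized values and with the same sign in both sets. Of these, 85 were lower (0.680%) and 85 higher (0.680%) in the low arrays. Without a limit on size, 845 genes were lower without overlap (6.76%) and 1052 higher (8.42%). The median difference over all genes was 0.01. Across the 12498 genes, which are not independent of each other, the low minus high difference in experiment 2 correlated with that in set 3 at r = 0.38; the sets share no array.

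**Figure D2:**
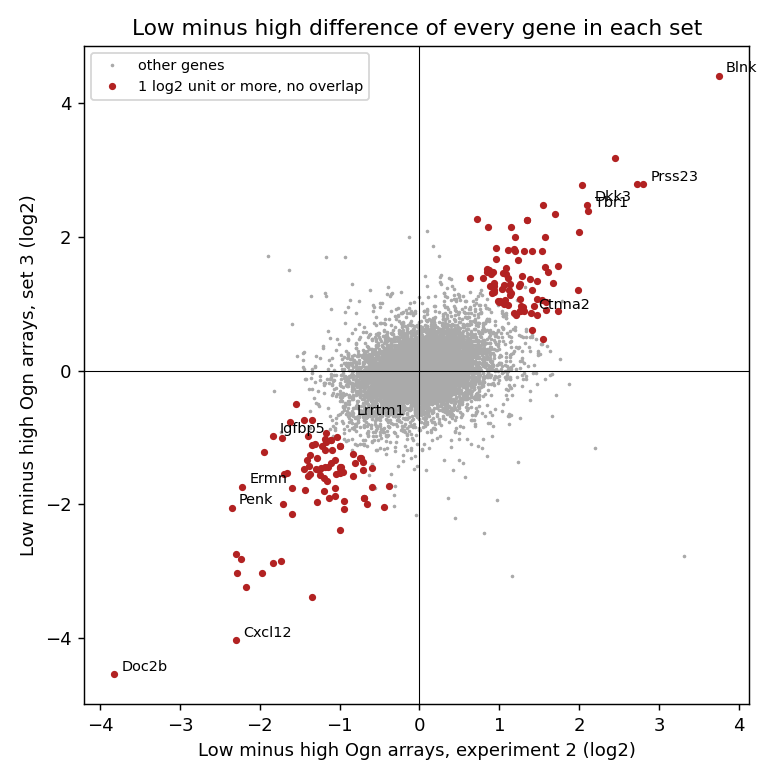
Low minus high difference of each of 12498 genes in experiment 2 (x axis) and in set 3 (y axis), both in log2 units; red points are the 170 genes of 1 log2 unit or more without overlap. Doc2b lies furthest down in both sets (-3.82 and -4.54) and Blnk furthest up (3.75 and 4.41).

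The promoters of some of these genes are printed to let a reader compare the sequence upstream of genes that moved together or apart. Each run is the 250 bases before the annotated start, 5' to 3' on the gene's strand, from RefSeq on build GRCm38.p6; capitals mark matches, on either strand, to TATAAA, to TGACGTCA (the cAMP response element) or to GGGCGG (an Sp1 box). The windows are chr13:49607765-49608014 (plus strand) for Ogn, chr1:72874866-72875115 (minus strand) for Igfbp5 and chr19:40994222-40994471 (minus strand) for Blnk, the gene that rose most.
Ogn: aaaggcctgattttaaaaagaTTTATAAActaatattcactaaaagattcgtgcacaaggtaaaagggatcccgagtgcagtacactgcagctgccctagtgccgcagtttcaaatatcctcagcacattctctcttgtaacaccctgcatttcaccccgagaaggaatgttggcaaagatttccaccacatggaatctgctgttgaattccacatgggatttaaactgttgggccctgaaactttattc
Igfbp5: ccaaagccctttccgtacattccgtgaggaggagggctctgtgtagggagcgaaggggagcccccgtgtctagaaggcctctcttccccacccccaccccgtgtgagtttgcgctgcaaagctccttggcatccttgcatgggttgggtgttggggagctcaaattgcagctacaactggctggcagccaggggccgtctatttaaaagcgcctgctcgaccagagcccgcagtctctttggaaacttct
Blnk: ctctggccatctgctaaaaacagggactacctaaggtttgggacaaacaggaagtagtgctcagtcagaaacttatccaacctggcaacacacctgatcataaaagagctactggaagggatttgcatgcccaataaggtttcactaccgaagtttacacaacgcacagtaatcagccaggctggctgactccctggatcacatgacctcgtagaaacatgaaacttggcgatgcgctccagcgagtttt

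The Ogn window holds TATAAA on both strands in overlapping copies, the start of the upstream copy 229 bases before the annotated start, and the Igfbp5 and Blnk windows hold none of the 3 motifs. The window of Cxcl12, another of the lower genes, is not printed and holds GGGCGG 5 times. A promoter entry was matched by symbol for 70 of the 85 lower and 63 of the 85 higher genes, and none was found for Penk or Doc2b. TATAAA occurred in 11.5% of the 87 promoters of lower genes and 10.5% of the 95 promoters of higher genes, against 6.74% of the 13059 promoters of genes tested and 12.4% of all 32851. TGACGTCA occurred in 1 of the 87 and 0 of the 95, against 2.47% of those of genes tested, and GGGCGG in 52.9% and 47.4%, against 55.6%. A match is a string of letters, not a shown binding site.

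Doc2b, which encodes a calcium sensor of vesicle release, was the gene furthest below. Its intensity was 136, 158 and 68.9 in the low arrays and 2270, 1910 and 1700 in the high arrays, an 18.1-fold difference (log2 -4.18). Cxcl12, a chemokine that dentate progenitors and granule cells respond to, was at 299, 346 and 89.4 in the low arrays and 1670, 1540 and 1650 in the high ones (log2 -3.16), and its direction was shared by 1 of 3 probe sets. C1ql2, a secreted synaptic organizer of mossy fibres, was at 136, 442 and 135 against 1230, 886 and 1130 (log2 -2.52). In each of these genes the high arrays lay close together and the set 3 low array was the lowest or level with the lowest.

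The other large falls were Cemip, a hyaluronan-binding protein (log2 -2.70, with 1 of 3 probe sets sharing the direction), Rflnb (-2.65), Tafa1 (-2.52), the potassium channel subunit Kcng1 (-2.49), the desmosomal cadherin Dsg2 (-2.36), Spata13 (-2.35), the kainate receptor subunit Grik3 (-2.29), Penk (-2.20) and Ermn, an oligodendrocyte cytoskeletal protein (-1.98). Ermn was at 41.3, 52.3 and 89.5 in the low arrays and 256, 282 and 391 in the high ones. Of 15 oligodendrocyte markers measured, Ermn included, 5 were lower and 10 higher, with a median difference of 0.05.

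Blnk, an adaptor protein known from B-cell receptor signalling, was the gene furthest above. Its intensity was 1670, 1770 and 3780 in the low arrays and 120, 217 and 166 in the high ones, a 16.9-fold difference (log2 4.08). Prss23, a serine protease, was at 2250, 1660 and 2870 against 266, 372 and 547 (log2 2.80). Dkk3, a secreted protein of the Dickkopf family, was at 892, 765 and 1070 against 193, 149 and 244 (log2 2.29). In all 3 genes the low arrays stood apart, and both kinds of array were well above the 16 added before taking logs.

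Tbr1, a transcription factor of glutamatergic neurons of the cortex, was at 1130, 633 and 1200 in the low arrays and 195, 184 and 282 in the high ones (log2 2.25). The remaining large rises were Mamdc2 (2.82), the protocadherin Pcdh11x (2.76), Igdcc3 (2.41), Klhdc8a (2.04), the carbonic anhydrase Car4 (2.02), Tmem215 (2.02), Plcxd3 (1.81) and Sh3rf1 (1.80, with 4 of 5 probe sets sharing the direction). Pcdh11x was at 339, 340 and 274 in the low arrays and 43.4, 24.2 and 22.6 in the high ones. Rises and falls were equally many.

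**Figure D3:**
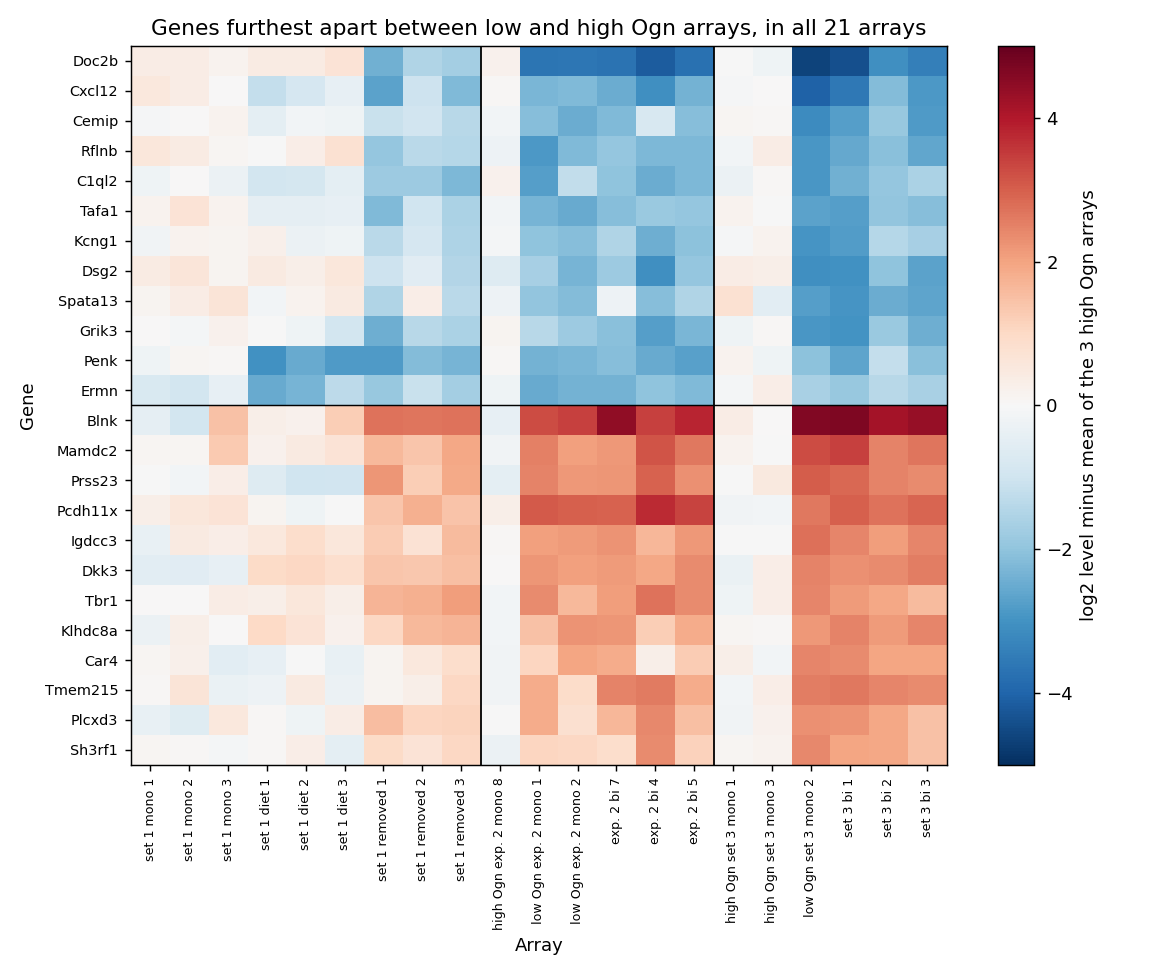
Normalized log2 level minus the mean of the 3 high Ogn arrays, for the 12 largest falls (above the line) and 12 largest rises (below it), in all 21 arrays; black vertical lines separate set 1, experiment 2 and set 3. For all these genes but Spata13 and Car4 the 6 bitransgenic arrays of experiment 2 and set 3 lie beyond the 3 high Ogn arrays on the side of the low ones, Penk is blue in all 6 bitransgenic arrays of set 1, and Doc2b and Blnk differ from the monotransgenic level there mainly after doxycycline removal.

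In most of these genes the bitransgenic arrays lay on the side of the low Ogn arrays. Of the 85 lower genes, 72 (84.7%) had all 6 bitransgenic arrays of experiment 2 and set 3 below the 3 high Ogn arrays, against 2.82% of all genes. Of the 85 higher genes, 74 (87.1%) had all 6 above them, against 4.10%. Both comparisons use the same high arrays that chose the genes, so they are not independent of the choice. Without set 3 replicate 2, the only low array of its set, set 3 gives no difference and the share over both directions fell from 85.9% to 41.1% of a longer list of genes.

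Over all 12498 genes, 148 (1.18%) had the 3 low arrays apart from the 6 bitransgenic arrays, while 864 (6.91%) had the 3 high arrays apart from them. For Doc2b the bitransgenic arrays were at 142, 81.1 and 127 in experiment 2 and 81.5, 236 and 172 in set 3, around the low arrays at 136, 158 and 68.9. For Blnk they were at 4070, 1990 and 2570, then 3910, 2780 and 3430, overlapping the low arrays. For Ogn they were at 54.5, 27.9 and 71.9, then 24.1, 143 and 44.9.

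The set 3 titles begin with a number, and what it marks is not given. The low array (replicate 2) shares its number with bitransgenic replicate 1, and the high array of replicate 3 with bitransgenic replicate 3. Within the first of these pairs Doc2b was at 68.9 in the low and 81.5 in the bitransgenic array, and Penk at 123 and 75.8. Within the other, Doc2b was at 1700 in the high and 172 in the bitransgenic array, and Penk at 484 and 116. In Doc2b and Penk the low array was thus nearer to its bitransgenic partner than the high array was to its own. Both genes were named for differing between low and high arrays, so this order was largely set by the choice. It did not hold for every gene: normalized Lrrtm1 was at 9.76 and 11.69 in the first pair and 10.4 and 11.7 in the other. Each side had 1 array, and no test was run.

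In the arrays of set 1, which no rule used, the genes lower in the low Ogn arrays were mostly lower in bitransgenic than in monotransgenic samples. Of the 85, 83 had the same sign in set 1, where 6447 of all 12498 genes were lower. With an unadjusted limma p under 0.05, 41 were lower (48.2%, against 3.44% of all genes) and 0 were higher. The median difference of the 85 was -0.70, against -0.01 over all genes. All 6 bitransgenic arrays were below the 3 monotransgenic ones for 37 genes (43.5%, against 3.20%). Of the 85 genes higher in the low Ogn arrays, 78 had the same sign in set 1, where 6051 of all 12498 genes were higher. With an unadjusted limma p under 0.05, 21 were higher (24.7%, against 2.54%) and 1 was lower. The median of these 85 genes was 0.43. No overlap in the same direction was found for 16 of them (18.8%, against 2.64%).

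After adjustment over all genes, Penk alone of the 85 lower genes passed for both bitransgenic groups of set 1 together and Igfbp5 alone after removal, and 0 of the 85 higher genes passed in either. With set 1 fitted alone by limma, 33 of the 85 lower genes were called lower (38.8%, against 0.768% of all genes) and 13 of the 85 higher genes were called higher (15.3%, against 0.360%). Dkk3 then rose by 1.69 ± 0.09 (adjusted p = 2.12e-06), Tbr1 rose by 0.98 ± 0.12 (adjusted p = 0.00338), C1ql2 fell by 1.2 ± 0.13 (adjusted p = 0.00136) and Cxcl12 fell by 1.69 ± 0.28 (adjusted p = 0.0146).

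The genes fell into different patterns across the doxycycline arms of set 1. Ogn and Penk were as low on the diet as after removal. Doc2b was not: its intensity was 2640, 2650 and 2190 in the monotransgenic arrays and 2580, 2590 and 3170 on the diet, but 358, 698 and 611 after removal. Blnk was at 109, 72.3 and 469 in the monotransgenic arrays, 197, 183 and 392 on the diet and 1120, 1080 and 1110 after removal. In both genes the diet arrays overlapped the monotransgenic ones and the removed arrays stood apart from both.

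Prss23 was at 363, 330 and 471 in the monotransgenic arrays, 231, 179 and 183 on the diet and 1800, 897 and 1420 after removal. Dkk3 resembled Penk more, at 119, 116 and 138, then 370, 390 and 336 on the diet and 499, 498 and 553 after removal. Over the 85 lower genes the median difference from the monotransgenic group was -0.33 on the diet and -0.94 after removal, and over the 85 higher genes it was 0.25 and 0.64. Of the 85 lower genes 10 were lower by 1 log2 unit or more on the diet (0.288% of all genes) and 36 after removal (0.632%). Of the 85 higher genes 3 were higher by as much on the diet (0.0480% of all genes) and 23 after removal (0.312%). The diet and removed comparisons share the monotransgenic arrays.

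The difference between removed and diet was itself tested, as a comparison added after the data were seen. In limma's fit over 21 arrays it was -2.35 ± 0.92 for Doc2b (adjusted p = 0.826), 2.11 ± 0.95 for Blnk (adjusted p = 0.943) and 2.64 ± 0.63 for Prss23 (adjusted p = 0.183), none past the threshold. Fst, which encodes follistatin, an activin-binding protein, was the 1 of the 170 genes that passed, at 2.37 ± 0.36 (adjusted p = 0.0199). Fst intensity was 598, 588 and 354 in the low and 201, 156 and 224 in the high Ogn arrays. Doc2b, Blnk and Prss23 were chosen for differing within monotransgenic groups whose spread enters the fit, so their SE was partly set by that choice. For Doc2b the SE of both bitransgenic groups against monotransgenic was 0.8 over 21 arrays and 0.16 with set 1 alone. Removed against diet was not tested with set 1 alone. In that limma fit Doc2b passed against monotransgenic after removal (adjusted p = 9.74e-05) but not on the diet (adjusted p = 0.846).

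**Figure D4:**
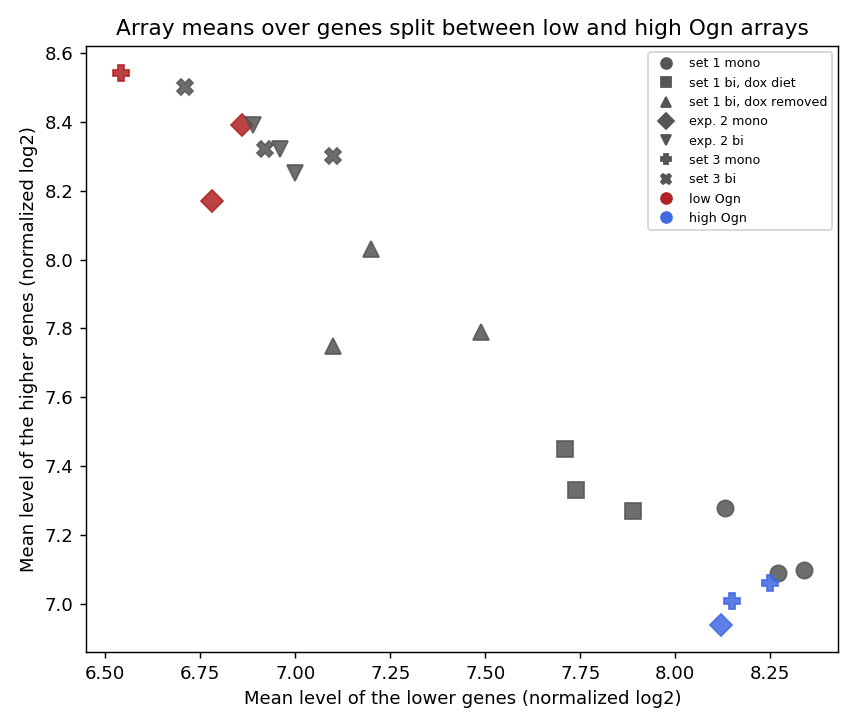
Mean normalized log2 level of the 85 lower genes (x axis) and of the 85 higher genes (y axis) in each of the 21 arrays; symbols mark groups, red and blue the low and high Ogn arrays whose values chose the genes. The set 1 monotransgenic arrays lie at 8.13 to 8.34 on the x axis beside the high Ogn arrays, the diet arrays at 7.71 to 7.89, the removed arrays at 7.10 to 7.49, and the bitransgenic arrays of experiment 2 and set 3 at 6.71 to 7.10.

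Averaged over the 85 lower genes, the level of the high Ogn arrays was 8.12, 8.15 and 8.25, and that of the set 1 monotransgenic arrays 8.27, 8.34 and 8.13. The low Ogn arrays were at 6.86, 6.78 and 6.54. The arrays on the doxycycline diet lay between, nearer the high Ogn arrays, and those after removal lay further toward the low ones, with no overlap between the arms of set 1. The 85 higher genes gave the mirror order, with 1 overlap: set 1 monotransgenic replicate 3, at 7.28, was level with the lowest diet array, at 7.27.

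A few genes set the low Ogn arrays apart from the bitransgenic ones. Only 4 of the 148 that separated them were at least 1 log2 unit lower in the low arrays than in the bitransgenic arrays: Rtn4r (-2.14), Lrrtm1 (-1.90), Rbm45 (-1.73) and Rnf180 (-1.24). Lrrtm1, a synaptic leucine-rich repeat protein, was at 762, 813 and 848 in the low arrays, 1470, 1440 and 1310 in the high arrays and 2360 to 4280 in the bitransgenic arrays. The low arrays were thus the lowest of all in Lrrtm1, below the set 1 monotransgenic arrays (1400, 1450 and 1330) and the diet arrays (1530, 1400 and 1470) as well.

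Ctnna2, which encodes the neuronal adhesion protein alpha-N-catenin and whose locus contains Lrrtm1 in an intron, ran against the rest. It was at 244, 241 and 202 in the low arrays, 90.6, 83.4 and 133 in the high arrays and 80.4 to 147 in the bitransgenic arrays of experiment 2 and set 3. In set 1 the monotransgenic arrays were at 210, 210 and 230, the diet arrays at 103, 102 and 122 and the removed arrays at 85.2, 77.7 and 90.5. In Ctnna2 the range of the low Ogn arrays thus spanned that of the set 1 monotransgenic arrays, and the high Ogn arrays overlapped the set 1 bitransgenic ones. In Penk the overlaps were the other way round, with the low arrays at 89.6 to 123 beside bitransgenic ones at 54.6 to 106 and the high arrays at 484 to 614 beside monotransgenic ones at 459 to 577.

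Ctnna2 was the 1 gene of the 85 higher ones with an unadjusted p under 0.05 in the opposite direction in set 1, at -1.03 ± 0.27 (limma adjusted p = 0.287 over 21 arrays); with set 1 fitted alone it fell by 1.03 ± 0.11 (adjusted p = 0.000711). Rtn4r, Lrrtm1, Rbm45, Rnf180 and Ctnna2 were named after their values were seen.

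**Figure D5:**
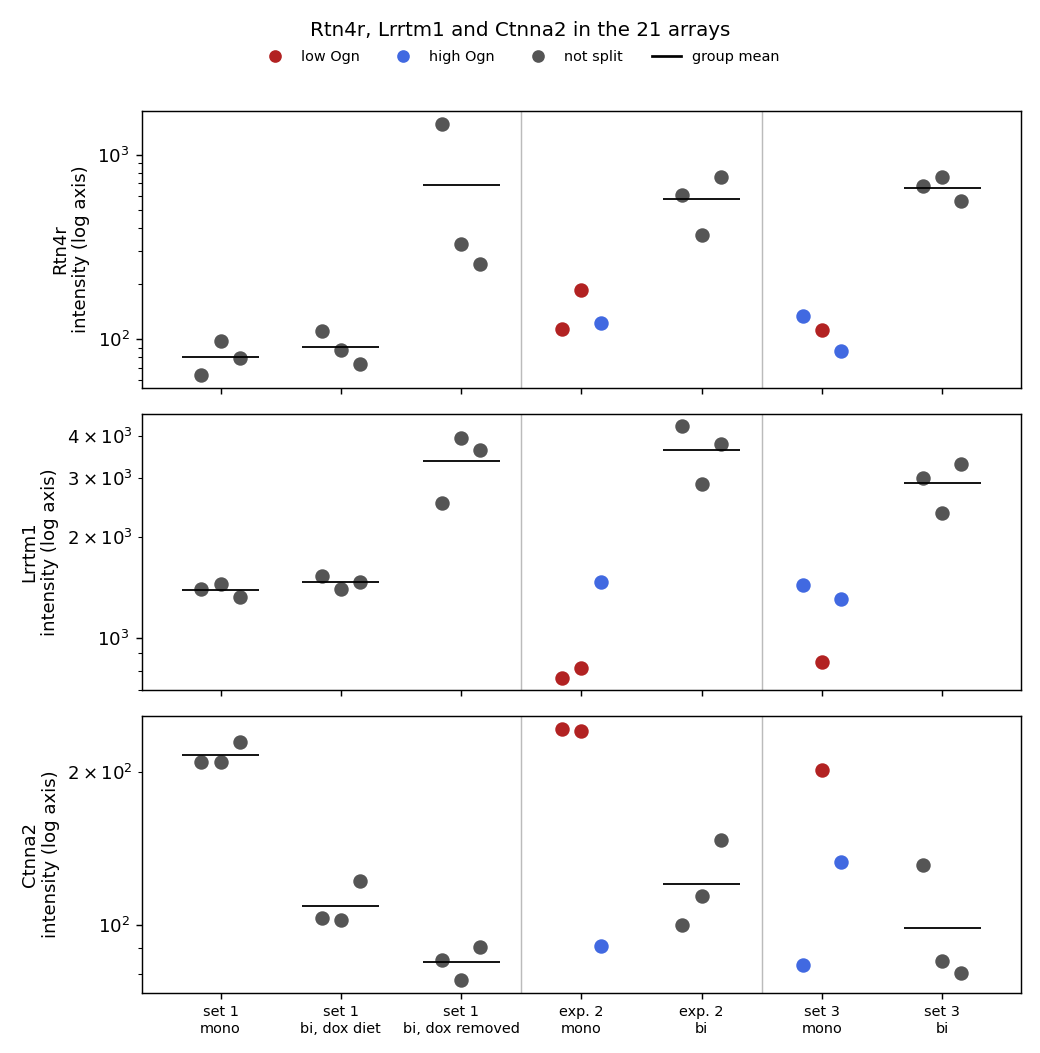
Intensity of Rtn4r, Lrrtm1 and Ctnna2 (log axes) in each of the 21 arrays, by group; red points are low Ogn arrays, blue points high ones, grey points all others, and black lines the means of the groups that were not split. The low Ogn arrays are the lowest in Lrrtm1 (762 to 848) and lie with the set 1 monotransgenic arrays in Ctnna2 (202 to 244).

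Granule cell markers were mostly lower in the low Ogn arrays. Of 17 measured, 14 were lower and 3 higher, 7 below and 3 above without overlap (all genes: 6.76% below, 8.42% above), and their median difference was -0.38. C1ql2, the channel Trpc6 (-1.86), Tox3 and Glis3 were among the lower ones, whereas Prox1, the transcription factor that defines granule cells (-0.45), and the calcium buffer Calb1 (-0.33) overlapped. The 3 higher members were Tdo2, a tryptophan-degrading enzyme known from mature granule cells (1.5), Il16 (0.89) and Pdzd2 (0.77). Tdo2 was at 1310, 893 and 1420 in the low arrays and 471, 440 and 391 in the high ones, so the markers did not move as a block. Fewer cells of a type and less RNA per cell cannot be told apart in bulk tissue.

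Markers of other regions and cell types also differed, and their part in the results above was not tested. Of 13 measured striatum, thalamus and neocortex markers, 12 were higher and 1 lower, 6 above and 1 below without overlap (all genes: 6.76% below, 8.42% above), with a median of 0.30; Tbr1 and Rorb (1.18) led them, and Drd1 was lower (-0.83). Their summed intensity was 4100, 3470 and 3570 in the low arrays and 2380, 2390 and 2340 in the high ones, without overlap. Tbr1, named above for its rise in these same arrays, supplied much of that gap. It made up 1130, 633 and 1200 of the low sums and 195, 184 and 282 of the high ones. Of 11 markers of CA3, CA2 and hilar mossy cells, 5 were lower and 6 higher, 2 below and 5 above without overlap (all genes: 6.76% below, 8.42% above), among them Ociad2 (1.66) and Nrip3 (1.55). The CA1 markers were 5 lower and 2 higher of 7, with a median of -0.03. Of them 2 were below and 1 above without overlap (all genes: 6.76% below, 8.42% above). Pou3f1 had the largest difference (-1.41), but it was dim and its other probe set showed 0.02.

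Astrocyte markers were higher in 11 of 12, with 3 above and 1 below without overlap (all genes: 6.76% below, 8.42% above) and a median of 0.45. Gfap, the astrocyte filament protein, had the largest difference (1.42) but overlapped, at 467, 370 and 665 in the low arrays and 120, 400 and 257 in the high ones. Aqp4, the astrocyte water channel, was at 368, 265 and 369 against 164, 242 and 196, without overlap. The astrocyte sum was 6980, 6550 and 7380 in the low arrays and 4990, 6190 and 5400 in the high ones, also without overlap. The set 1 median of the same markers was 0.01, and 0 of them passed there by limma.

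Meningeal and fibroblast markers bear on Ogn, since meningeal cells also make it. Of 9 measured, 5 were lower and 4 higher, 1 below (Lum) and 2 above without overlap (Mgp at 0.30 and Ccdc80 at 1.56), counts that stand beside 6.76% below and 8.42% above for all genes. Their summed intensity was 531, 770 and 544 in the low arrays and 538, 938 and 530 in the high ones, which overlapped. Inhibitory neuron markers (10 of 14 higher, median 0.06), microglia markers (7 of 9 higher, median 0.12) and endothelial and pericyte markers (9 of 11 higher, median 0.14) had 0 members below without overlap, and Gad1 (0.27) and Cck (1.19) alone above. The inhibitory sum was 7240, 6620 and 7370 in the low arrays and 5950, 5960 and 5320 in the high ones, without overlap. Gad1 made up 5150, 4390 and 4640 of it in the low arrays and 4000, 3790 and 3740 in the high ones. The microglia and the endothelial and pericyte sums overlapped. The blood cell sum, with only Ptprc bright enough to be tested, was 106, 82.9 and 96.9 against 64.1, 61.5 and 45.8, without overlap.

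Relatives of the 3 marker genes ran in both directions. Of 4 genes for small leucine-rich proteoglycans other than Ogn, Lum and Podn were lower and Dcn and Bgn higher. Dcn and Bgn were higher in experiment 2 only (1.08 and 1.46, against -0.13 and -0.04 in set 3). The high array there was near the floor, at 2.14 for Dcn and 2.62 for Bgn, and the other Dcn probe set showed -0.49. Of 5 opioid genes 4 were lower: Penk and the nociceptin receptor Oprl1 (-0.40) without overlap (all genes: 6.76% below), Pdyn, the dynorphin precursor (-0.96), and Pomc (-0.28) with overlap. Penk had been picked with these arrays in view, and 2 of 3 Oprl1 probe sets shared the direction. Of 10 insulin-like growth factor genes 5 were lower and 5 higher, and Igfbp5 and Igfbp6 (-0.71) were below without overlap, as were 6.76% of all genes.

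Activity-regulated peptides and growth factors moved apart from each other. Of 14 measured, 9 were lower and 5 higher. Penk, the secretogranin Scg2 (-1.29) and Bdnf (-0.57) were below without overlap, and Cck (1.19), Fst (1.25) and Inhba, an activin subunit (1.31), above (all genes: 6.76% below, 8.42% above). Scg2 was at 926, 661 and 627 in the low arrays and 1770, 1600 and 1690 in the high ones. Inhba was at 341, 429 and 384 against 186, 111 and 141. Immediate early genes were 14 lower and 7 higher of 21, with a median of -0.22 and 3 on each side without overlap (all genes: 6.76% below, 8.42% above); Fos (0.14), Arc (-0.35) and Egr1 (0.28) overlapped.

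Neurogenesis and proliferation genes were 8 lower and 5 higher of 13, with Sox11, a transcription factor of immature neurons, furthest down (-1.33): 588, 402 and 183 in the low arrays against 779, 626 and 912 in the high ones. Dcx, the microtubule protein of young neurons, ran the other way (0.75) and overlapped.

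All 4 measured genes of the chromosome 12 segment near Vipr2 were lower in the low arrays: Wdr60 (-0.50), Ncapg2 (-0.50) and Esyt2 (-0.32) without overlap (all genes: 6.76% below), and Ptprn2 (-0.33) with overlap. Wdr60 was at 49.8, 48.1 and 43.4 in the low arrays and 73.6, 66.3 and 73.1 in the high ones. In set 1 the same 4 genes had a median difference of -0.55, and 0 passed by limma over 21 arrays. With set 1 fitted alone by limma, Ptprn2 passed at -0.79 ± 0.16 (adjusted p = 0.035), and Wdr60, Ncapg2 and Esyt2 did not. Wdr60, Ncapg2 and Esyt2 were dim, and a second probe set of Esyt2 and of Ptprn2 ran the other way.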

How the data were processed

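Total RNA of dentate gyrus was measured on 21 Affymetrix mouse arrays. The deposited values are probe set intensity on a linear scale; tested on the file, the mean of each array after trimming 2% at each end is 150, a scaling the authors applied, and the software behind it is not given. Of 45101 probe sets, 64 controls were left out, and 34945 had 1 gene symbol, 932 several and 9160 none; 34741 matched RefSeq genes by Entrez ID. Values were taken as log2(value + 16) and quantile normalized. The upper 60% by mean (27023 probe sets, 4.90 or more) was kept, with the probe set of highest mean per gene, giving 12499 genes. The number of arrays limits the precision. Log2 differences between low and high Ogn arrays are means of the differences within experiment 2 and set 3 and are understated for dim genes. Set 1 was tested with limma 3.58.1 (R 4.3.3, with version 1.17.8 of the data.table package) over all 21 arrays, with a mean per group, 14 residual degrees of freedom, a variance trend and two-sided tests adjusted by Benjamini-Hochberg over all genes, with a threshold of 0.05. Ogn, Penk and Igfbp5 were also tested by exact permutation. The script was tested on simulated data. Promoters came from RefSeq, and figures were drawn with matplotlib.

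Genes named were Ogn, Penk and Igfbp5, the 12 largest falls and 12 largest rises among genes without overlap, the genes called in set 1, up to 4 members of each of 22 gene lists with the largest difference, and the chromosome 12 segment; list members named beside these, and those said to be so, were chosen after their values were seen. The members and lists were chosen with earlier results of these data known. Alternatives were the pseudocount, the filter, the normalization, the choice of probe set, the arrays fitted, array weights, the variance trend, the threshold and leaving out each array; the removed against diet comparison was added after seeing the data.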

Additional observations from a re-analysis of the deposited data

Results flagged for a closer look

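In set 1 the effects of doxycycline removal and of the doxycycline diet, each against the monotransgenic group, differed for Fst by 2.37 log2 units and for Rtn4r by 2.30 (limma adjusted p = 0.0199 and 0.0405). Between experiment 2 and set 3 the low minus high difference ran in opposite directions, with every low array on 1 side of every high array in each set after normalization, for 4 named genes; these differences between sets were not tested. They were Bgn (1.46 in experiment 2 and -0.04 in set 3), Dcn (1.08 and -0.13), Cx3cr1 (-0.84 and 0.18) and Csf1r (0.75 and -0.14). In set 3 the deposited intensities did not separate for Bgn (17.4 in the low array, 18.1 and 16.8 in the high ones) or Dcn (12.6, against 16.8 and 12.6). Bgn and Dcn encode matrix proteoglycans like Ogn, and Cx3cr1 and Csf1r are microglial receptors. No other named gene, sex-linked markers left aside, met either condition, and groups of 3 arrays were not examined for outlying values.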

How the results depend on the processing

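No result changed direction under the alternatives run. For the 3 set 1 comparisons (both bitransgenic groups, diet and removed, each against monotransgenic), the counts of genes called were 142, 32 and 330 with set 1 alone, 123, 41 and 254 with array weights, and 2, 1 and 4 without the variance trend. With a pseudocount of 1 both groups gave 2 and removed 5, and with 64 they gave 9 and 14. Without the filter both groups gave 2 and the diet 0; the upper 40% gave 3 for both groups; centring on the 75th percentile gave 14 for removed; averaging all probe sets of a gene gave 1 for the diet and 5 for removed. Leaving out 1 array gave 0 to 19, 0 to 6 and 0 to 40. The counts were 0 in all 3 without set 1 monotransgenic replicate 1 or 2, and highest without set 3 monotransgenic replicate 2. Among the alternatives that did not leave out a single array (set 1 alone included), Ogn and Tox3 passed in 10 of 10, Penk in 6 of 10, Glis3 in 7 of 10, Lum in 5 of 9 and Igfbp5 in 2 of 10; without 1 array of set 1, Ogn and Tox3 passed in 7 of 9, Penk and Glis3 in 0 of 9, and Lum and Igfbp5 in 1 of 9.

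The genes of 1 log2 unit or more without overlap, lower and higher, numbered 157 and 167 with a pseudocount of 1, 42 and 47 with 64, 148 and 212 in experiment 2 alone, 160 and 140 in set 3 alone, 351 and 382 at a threshold of 0.5 and 24 and 24 at 1.5; without 1 array they ran from 84 to 160 and from 90 to 212. Those with an unadjusted p under 0.05 in the same direction in set 1 numbered 22 and 12 with a pseudocount of 64, 67 and 46 with set 1 alone and, for higher genes, 38 with array weights; without 1 array they ran from 26 to 68 and from 7 to 29. The share of such genes with all bitransgenic arrays beyond the high ones was 49.2% at a threshold of 0.5 and 59.6% with a pseudocount of 1, and ran from 41.1% to 92.0% without 1 array. The low minus high difference without 1 array ran from -3.74 to -2.14 for Ogn, -2.35 to -2.05 for Penk and -1.84 to -0.98 for Igfbp5; in set 1 it was -4.36 to -4.17, -2.67 to -2.48 and -2.19 to -1.68, and under permutation -4.35 to -4.17, -2.67 to -2.50 and -2.17 to -1.64. Where set 1 alone differs from all arrays, the residual SD above differs with it, and the causes were not tested. No paired analysis was possible because the sample numbers are not shared between the groups of set 1, the only set tested. Dim genes, near the added 16, have the least certain differences.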
